A study of Homo sapiens with 12 samples.

Results

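The subject is a set of 38 genes that act in the G2 phase of the cell cycle and in mitosis, taken by gene symbol from a fixed list of members. All 38 were found among the 57755 gene identifiers of the expression tables, and all 38 were among the 15610 genes with enough signal to test. The data are RNA-seq values for KYSE510 and TE7, a pair of established human cell lines from esophageal squamous cell carcinoma, in 12 libraries. There were 6 conditions with 1 library per line in each: DMSO, the vehicle; 50 nM THZ1 after 2, 4, 6 and 12 h; and a dose of 200 nM after 6 h. THZ1 is a covalent inhibitor of CDK7 that also acts on CDK12 and CDK13. No genetic change is named in the labels, and each line is 1 model with its own culture medium.

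Cells make the machinery of mitosis late in each cycle. CDK1 bound to cyclin B drives entry into mitosis, Aurora and Polo-like kinases build the spindle, and the spindle checkpoint holds back the anaphase-promoting complex until all chromosomes are attached. Genes of this programme share a control layer. The MuvB complex, with B-MYB and then FOXM1, acts through the CHR element, searched here as TTTGAA or TTCGAA. NF-Y binds CCAAT boxes in the same promoters. CDK7 bears on such genes in more than one way, since it activates CDK1 and CDK2 and also phosphorylates RNA polymerase II as a part of the transcription factor TFIIH. In whole cultures, fewer cells in G2 and mitosis and less RNA per such cell cannot be told apart.

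Values are FPKM, the fragments counted per length of transcript and per fragment total of the library, so each value is a share of its own library. Changes are differences in log2(FPKM + 1) from the DMSO library of the same line, averaged over the 2 lines with the standard error (SE) of the model, and "fell" is used where the adjusted p of limma, over all 15610 genes, was under 0.05. The DMSO libraries are titled 0 h but carry a time label of 12 h, and no DMSO library stands for 2, 4 or 6 h, so hours of THZ1 cannot be told apart from hours in culture. FPKM summed to 383975 to 729515 per library, and the authors' upper bound lay 4.17% to 10.2% above the value of the median member, which covers counting error only. Of the members, 35 reached 1 FPKM in all 12 libraries, and the exceptions were TTK, CDC25C and CENPE in TE7. The cultures read as squamous epithelium: 10 of 10 marker genes were detected with a summed level of 2261 to 5331 FPKM, fibroblast markers summed to 3.60 to 11.3 FPKM with 3 of 6 under 1 FPKM everywhere, and leukocyte and endothelial markers summed to 2.49 to 14.8 FPKM, with 4 of 5 under 1 FPKM everywhere and CD68 as the other one.

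3 libraries stood apart. The library labelled KYSE510 DMSO held 61 genes under 0.3 FPKM that were over 8 FPKM in all 4 KYSE510 libraries at 50 nM, and 50 genes with the opposite pattern, against 1 and 4 genes in TE7 DMSO. The 200 nM libraries held 54 and 35 such genes in KYSE510, and 82 and 27 in TE7. None of the 38 members could be among these genes, since no member was under 0.3 FPKM in any library. The lowest value was 0.352 FPKM, for CDC25C in TE7 at 200 nM. The counts thus do not show that members were unaffected. KRT14, a basal keratin, read 28.7 FPKM in KYSE510 DMSO, 449 to 564 FPKM at 50 nM and 2.62 FPKM at 200 nM. Values for KYSE510 against DMSO and for 200 nM rest on these libraries. For the KYSE510 DMSO library, TE7 is given on its own beside them, and so are contrasts without DMSO. Neither avoids the 200 nM libraries, which stand apart in both lines, so every value at 200 nM rests on them.

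Most mitosis genes lay below DMSO at every time point. On the deposited scale the median difference was larger at 6 and 12 h than at 2 h and largest at 200 nM. By the mean of the lines 32 of 38 members lay below DMSO at 2 h, 34 at 4 h and 35 at both 6 and 12 h. The median member stood at -0.47 at 2 h, -0.49 at 4 h, -0.71 at 6 h and -1.23 at 12 h of 50 nM, and at -2.30 at 200 nM, where the median of all genes tested stood at 0.00, -0.06, -0.15, -0.42 and -0.65. At 2 h 0 of 38 members passed the test, beside 0% of all genes called down. At 4 h 0 of 38 did, beside 0.0512%. An unadjusted p under 0.05, in either direction, was seen at 2 h in 10 members, beside 1683 of all 15610 genes. At 4 h it was seen in 13 members, beside 2466 genes. Of the 38 members 8 fell at 6 h, beside 4.02% of all genes, and 20 fell at 12 h, beside 25.2%. At 200 nM 36 fell, beside 35.3% of all genes called down. In the same order 0 members rose, beside 0.0128%, 0.0256%, 0.692%, 3.27% and 3.22% of all genes called up. In TE7 alone 35 members (92.1%) were below DMSO in all 5 THZ1 libraries, beside 41.1% of all genes, and in KYSE510 27 (71.1%) were, beside 33.2%.

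The 6 h and 12 h counts depended on single libraries and on scaling. The 6 h count of 8 became 0 without any 1 of the 6 libraries at 2, 4 or 6 h of 50 nM, 2 without KYSE510 DMSO, 5 without either 12 h library and 17 without either 200 nM library. At 12 h it became 12 without either 12 h library and 13 without TE7 DMSO. Scaling by the median of ratios, which moved the median of all genes at 12 h from -0.42 to 0.05, left 2 members called at 6 h (KIF20A and HMMR), 9 at 12 h (PLK4, KIF2C, KIF20A, HMMR, CDC25B, CDC25C, CENPA, TOP2A and DLGAP5) and 27 at 200 nM. The median member then stood at -0.49 at 2 h, -0.40 at 4 h, -0.49 at 6 h, -0.64 at 12 h and -1.54 at 200 nM. The larger difference at 6 h than at 2 h was thus not seen on this scale. At 12 h 23 members lay below DMSO and 15 above it, where 35 and 3 did on the deposited scale. Of all genes, 1652 were then called down and 1822 up at 12 h, and of the members 9 and 0. At 6 h 180 of all genes were called down and 131 up, and at 200 nM 1884 and 2033. A fit with no replicate block called 0 members at 6 h and 13 at 12 h.

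**Figure D1:**
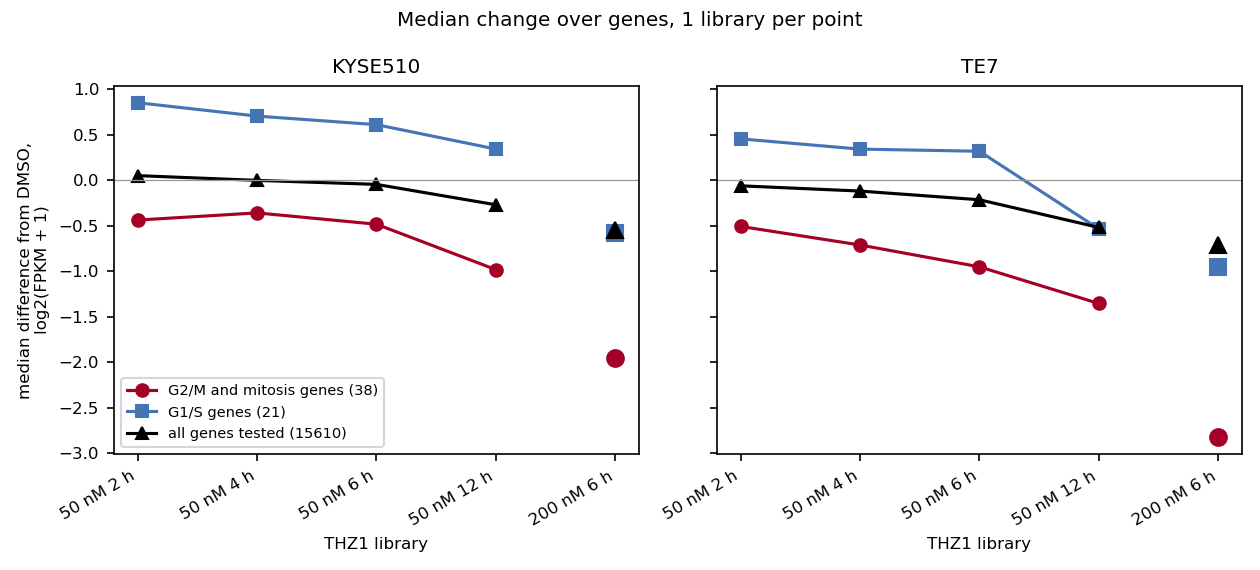
Median difference from DMSO in log2(FPKM + 1), by line and THZ1 library, for the 38 mitosis genes, 21 G1/S genes and all 15610 genes tested; each point is the median over genes of 1 library, with no replicate. The mitosis genes lie under the other groups in all 10 libraries.

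Members were sorted by the hour from which they stayed at or under a change of -1 in both lines. This is a description with no test. The early class was at or under -1 from 2 or 4 h through 12 h and held 4 genes: AURKA, KIF20A, HMMR and DLGAP5. The next class crossed at 6 h and held BUB1, CDC25C, CENPA and CENPF. A class of 9 crossed at 12 h alone (CCNB1, PLK4, TTK, KIF2C, KIF11, CDC20, CDC25B, TOP2A and NEK2), and 15 genes crossed at 200 nM but not at 12 h of 50 nM (CCNA2, CDK1, PLK1, AURKB, BUB1B, KIF18A, KIF23, CENPE, TPX2, PRC1, ECT2, ANLN, CDCA8, INCENP and KPNA2). Of these 15, KIF18A had been at or under -1 in both lines at 4 and 6 h of 50 nM, and CENPE at 6 h. Both were above -1 again at 12 h, CENPE only just so in KYSE510 (-0.98), so for them the class does not give the first crossing. The other 6 members met neither condition (CCNB2, MAD2L1, BIRC5, NUSAP1, FOXM1 and MKI67). At or under -1 in both lines stood 2 members at 2 h (0.455% of all genes), 5 at 4 h (1.72%), 10 at 6 h (4.25%), 17 at 12 h (15%) and 30 at 200 nM (20.4%).

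Some members lay close to the edges of these classes. AURKA was just inside the early class, at -1.0 in KYSE510 at 4 h, and CDC25C was just outside, at -0.99 in the same library. CDC20 (-1.06 in KYSE510) and NEK2 (-1.11 in TE7) were just inside the 12 h class, while CDCA8 (-0.99) and CCNA2 (-0.98) were just outside through KYSE510. BUB1B (-1.04 in KYSE510) was just inside at 200 nM and NUSAP1 (-0.86 in KYSE510) just outside. With a threshold of -0.75 the early class held 9 genes, and with -1.5 it held 0, where KIF20A, HMMR and DLGAP5 moved to the 6 h class and AURKA to the 200 nM class. In TE7 alone the classes held 9, 4, 14, 10 and 1 genes in the same order, and all 4 early genes stayed early there, with CDC20, CDC25C, CENPA, CENPF and TOP2A beside them. With the 2 h library in place of DMSO, 0 genes were early or at 6 h, 8 crossed at 12 h, 18 at 200 nM only and 12 in neither.

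**Figure D2:**
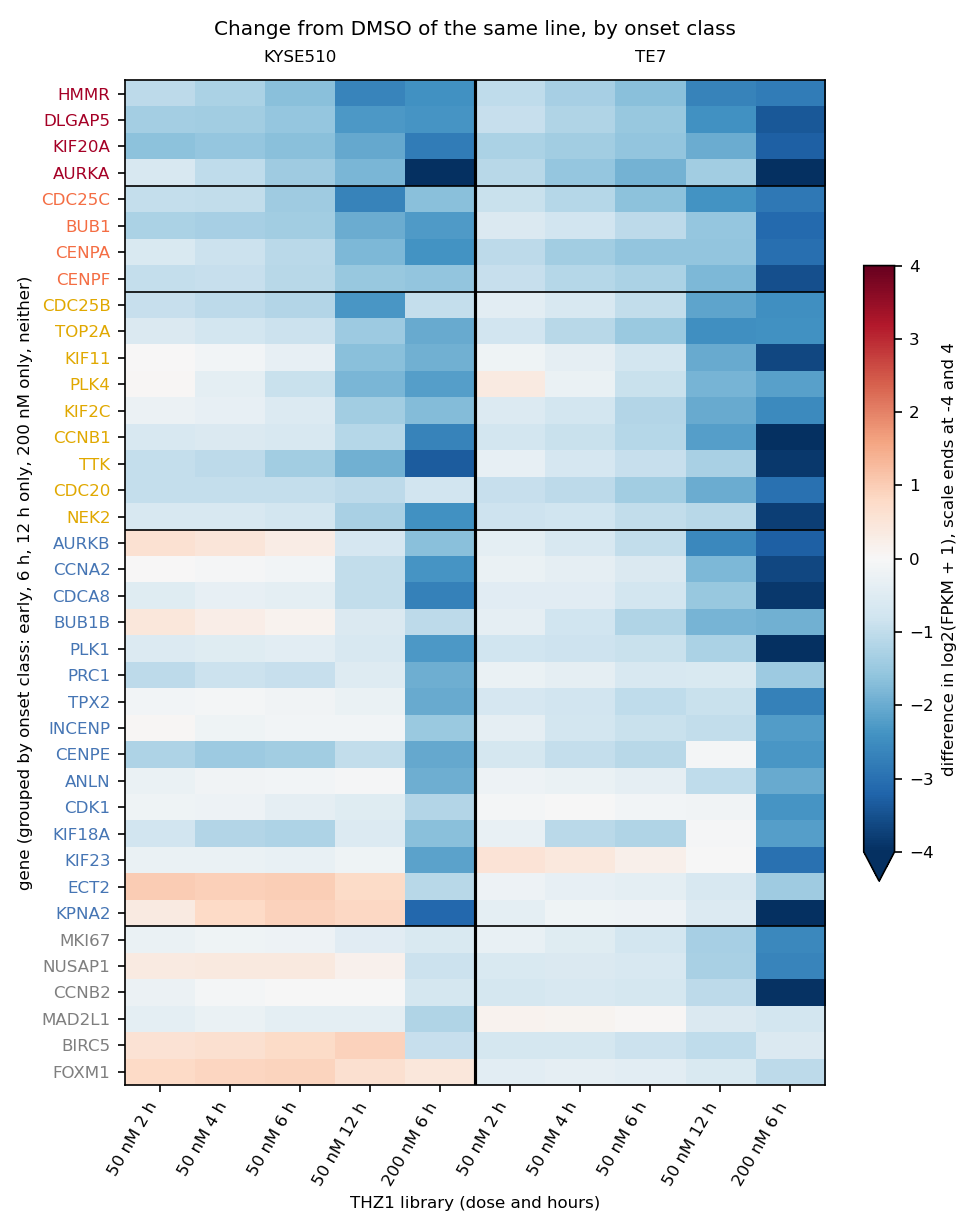
Difference in log2(FPKM + 1) from the DMSO library of the same line (colour, blue for lower) for each of the 38 genes (rows, grouped by onset class) in the 5 THZ1 libraries of each line (columns, 1 library each). Most rows are blue from the first column in TE7. In KYSE510 BIRC5, FOXM1, ECT2, NUSAP1 and KPNA2 are above DMSO (red) at every hour of 50 nM, and AURKB and BUB1B at 2, 4 and 6 h.

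DMSO levels and gene spans are given by class. The DMSO level is the baseline of the class rule, so it is not independent of the classes. Gene spans did not enter the rule. Median DMSO levels per length in KYSE510 were 66.2 FPKM in the early class, 37.1 in the 6 h class, 48.6 in the 12 h class, 56.6 in the 200 nM class and 55.3 in the last. In TE7 they were 54.2, 31.5, 55.9, 65.2 and 89.8 FPKM. Gene spans ran from 9.0 to 43.6 kb in the early class (median 27.3), 36.8 to 61.4 kb in the 6 h class (median 46.8), 4.25 to 62.1 kb in the 12 h class (median 19.2) and 5.86 to 92.6 kb in the 200 nM class (median 29.6). None of these comparisons between classes was tested.

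Promoters are shown for genes of contrasting onset, to show which of them hold the letters of the CHR element or the CCAAT box, the elements known for this gene programme. RefSeq windows of 300 bases (250 before and 50 after the start, GRCh38.p14) matched 33 of the 38 members, with the first listed window used for 6 members with several. AURKA, TTK, TPX2, BIRC5 and FOXM1 were not matched. Capitals mark TTTGAA or TTCGAA and CCAAT on either strand, so TTCAAA and ATTGG are the same letters read from the other strand, and neighbouring matches can overlap.
KIF20A (early, chr5:138178862-138179161, plus strand): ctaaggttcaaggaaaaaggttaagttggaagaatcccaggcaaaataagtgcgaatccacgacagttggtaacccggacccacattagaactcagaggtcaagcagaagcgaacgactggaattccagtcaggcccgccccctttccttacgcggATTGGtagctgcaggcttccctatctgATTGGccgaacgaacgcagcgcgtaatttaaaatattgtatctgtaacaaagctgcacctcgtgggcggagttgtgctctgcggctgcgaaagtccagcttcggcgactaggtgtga
HMMR (early, chr5:163460382-163460681, plus strand): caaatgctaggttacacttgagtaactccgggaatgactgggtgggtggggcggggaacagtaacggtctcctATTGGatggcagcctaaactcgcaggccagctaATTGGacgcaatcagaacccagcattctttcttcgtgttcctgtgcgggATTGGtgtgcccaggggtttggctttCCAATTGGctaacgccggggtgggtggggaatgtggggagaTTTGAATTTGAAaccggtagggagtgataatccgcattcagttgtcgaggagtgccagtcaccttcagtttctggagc
DLGAP5 (early, chr14:55191536-55191835, minus strand): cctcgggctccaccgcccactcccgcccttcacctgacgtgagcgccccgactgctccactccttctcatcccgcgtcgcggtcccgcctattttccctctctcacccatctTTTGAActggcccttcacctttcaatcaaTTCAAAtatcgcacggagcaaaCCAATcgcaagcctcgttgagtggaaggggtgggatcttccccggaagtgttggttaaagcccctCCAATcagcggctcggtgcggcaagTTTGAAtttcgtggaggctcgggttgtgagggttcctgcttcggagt
CCNB1 (12 h only, chr5:69166900-69167199, plus strand): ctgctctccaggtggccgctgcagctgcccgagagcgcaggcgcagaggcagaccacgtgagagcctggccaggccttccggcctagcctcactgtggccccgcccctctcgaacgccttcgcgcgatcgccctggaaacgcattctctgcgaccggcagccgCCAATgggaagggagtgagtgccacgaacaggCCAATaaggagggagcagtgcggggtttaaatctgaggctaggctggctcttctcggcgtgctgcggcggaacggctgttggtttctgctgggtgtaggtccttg
PLK1 (200 nM only, chr16:23678639-23678938, plus strand): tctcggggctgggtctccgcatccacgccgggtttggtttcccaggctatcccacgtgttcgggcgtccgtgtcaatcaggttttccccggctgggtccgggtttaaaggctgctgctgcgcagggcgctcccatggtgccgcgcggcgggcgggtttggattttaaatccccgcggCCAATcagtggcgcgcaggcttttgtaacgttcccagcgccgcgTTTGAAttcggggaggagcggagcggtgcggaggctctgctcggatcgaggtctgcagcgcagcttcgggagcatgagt
KPNA2 (200 nM only, chr17:68035485-68035784, plus strand): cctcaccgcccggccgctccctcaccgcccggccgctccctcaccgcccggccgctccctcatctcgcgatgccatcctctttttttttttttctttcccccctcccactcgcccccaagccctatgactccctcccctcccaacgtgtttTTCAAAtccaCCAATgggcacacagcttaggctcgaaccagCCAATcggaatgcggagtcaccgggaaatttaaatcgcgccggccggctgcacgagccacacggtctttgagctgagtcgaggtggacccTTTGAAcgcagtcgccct
CCNB2 (neither class, chr15:59104896-59105195, plus strand): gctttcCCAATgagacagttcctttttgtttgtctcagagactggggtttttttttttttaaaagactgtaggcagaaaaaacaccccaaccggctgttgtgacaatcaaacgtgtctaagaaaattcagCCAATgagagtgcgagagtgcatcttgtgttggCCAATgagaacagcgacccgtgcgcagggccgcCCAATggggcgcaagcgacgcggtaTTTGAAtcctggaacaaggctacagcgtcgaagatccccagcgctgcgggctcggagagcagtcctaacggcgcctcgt

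Among the 33 matched members 24 held TTTGAA or TTCGAA (72.7%), against 16.6% of the first windows of 27305 genes. CCAAT was in 26 (78.8%, against 35.7%), at least 2 copies of CCAAT in 17 (51.5%, against 11.3%), and both kinds of letters in 21 (63.6%, against 6.6%). These are matches of letters, not shown sites. By class, TTTGAA or TTCGAA was in 2 of 3 early genes, 3 of 4 at 6 h and 4 of 8 at 12 h. It was in 11 of 14 in the 200 nM class and 4 of 4 in the last class. KIF20A and CCNB1, of different onset, each held 2 CCAAT and no TTTGAA or TTCGAA in these windows. No other spelling of the CHR element was searched, so a window without these letters is not shown to lack the element. The CCNB2 window held 4 CCAAT and 1 TTTGAA, at -29 from the start, the same place as in PLK1.

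The early class held 2 spindle assembly genes, HMMR and DLGAP5, the kinesin KIF20A and the kinase AURKA. HMMR, which codes for a spindle and hyaluronan-binding protein at chr5:162887209-162918947 (hg19, as in all gene positions from the tables), was the member with the largest fall at 12 h. HMMR read 49.9 FPKM in DMSO, 23.8, 20.1, 14.9 and 7.09 FPKM at 2, 4, 6 and 12 h of 50 nM, and 8.43 FPKM at 200 nM in KYSE510. TE7 gave 39.9 FPKM in DMSO, 19.4, 15.2, 11.7 and 5.41 FPKM at 2, 4, 6 and 12 h of 50 nM, and 4.93 FPKM at 200 nM. Each later hour was lower than the one before in both lines. HMMR stood at -1.02 ± 0.19 at 2 h and -1.30 ± 0.19 at 4 h, which did not pass the test, fell by 1.68 ± 0.19 at 6 h (adjusted p = 0.0159) and fell by 2.66 ± 0.19 at 12 h (adjusted p = 0.00108). In KYSE510 its level at 12 h of 50 nM was under that at 6 h of 200 nM.

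KIF20A, the kinesin MKLP2 that works at the central spindle in cytokinesis, is at chr5:137514408-137523404. It read 58.9 FPKM in DMSO, 18.4, 19.6, 17.7 and 13.5 FPKM at 2, 4, 6 and 12 h of 50 nM, and 7.67 FPKM at 200 nM in KYSE510. In TE7 it read 37.6 FPKM in DMSO, 15.1, 13.9, 11.9 and 8.87 FPKM at 2, 4, 6 and 12 h of 50 nM, and 3.0 FPKM at 200 nM. KIF20A thus had most of its difference by 2 h, at 31.1% of the DMSO level in KYSE510 and 40.1% in TE7, and changed little from 2 to 6 h. It fell by 1.63 ± 0.23 at 6 h (adjusted p = 0.0184) and fell by 2.01 ± 0.23 at 12 h, and the difference between 12 h and 2 h, -0.56 ± 0.23, did not pass (adjusted p = 0.125).

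DLGAP5 (HURP), a spindle protein that stabilises kinetochore fibres at chr14:55614830-55658396, followed a course between those genes. Its levels were 73.5 FPKM in DMSO, 27.9, 27.1, 24.5 and 14.0 FPKM at 2, 4, 6 and 12 h of 50 nM, and 13.6 FPKM at 200 nM in KYSE510. In TE7 they were 68.5 FPKM in DMSO, 35.8, 29.2, 23.3 and 12.0 FPKM at 2, 4, 6 and 12 h of 50 nM, and 5.62 FPKM at 200 nM. In both lines the level went down at every step from 2 to 12 h. DLGAP5 fell by 1.53 ± 0.33 at 6 h (adjusted p = 0.0437), fell by 2.36 ± 0.33 at 12 h and fell by 1.22 ± 0.33 between 2 and 12 h (adjusted p = 0.0346).

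AURKA, the Aurora kinase of centrosomes and spindle poles at chr20:54944445-54967393, had the largest fall of all 38 members at 200 nM. AURKA read 87.5 FPKM in DMSO, 55.5, 43.2, 31.9 and 24.0 FPKM at 2, 4, 6 and 12 h of 50 nM, and 2.52 FPKM at 200 nM in KYSE510. TE7 gave 119 FPKM in DMSO, 54.6, 40.0, 31.4 and 44.9 FPKM at 2, 4, 6 and 12 h of 50 nM, and 1.62 FPKM at 200 nM. The 200 nM levels were 2.88% and 1.35% of DMSO, a fall of 5.09 ± 0.30 (adjusted p = 0.00027), and in the order of all genes tested AURKA lay at 0.0833% from the lowest. At 50 nM it fell by 1.66 ± 0.30 at 6 h (adjusted p = 0.0301) and fell by 1.61 ± 0.30 at 12 h (adjusted p = 0.00756), since TE7 was higher at 12 h than at 6 h while KYSE510 was lower.

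**Figure D3:**
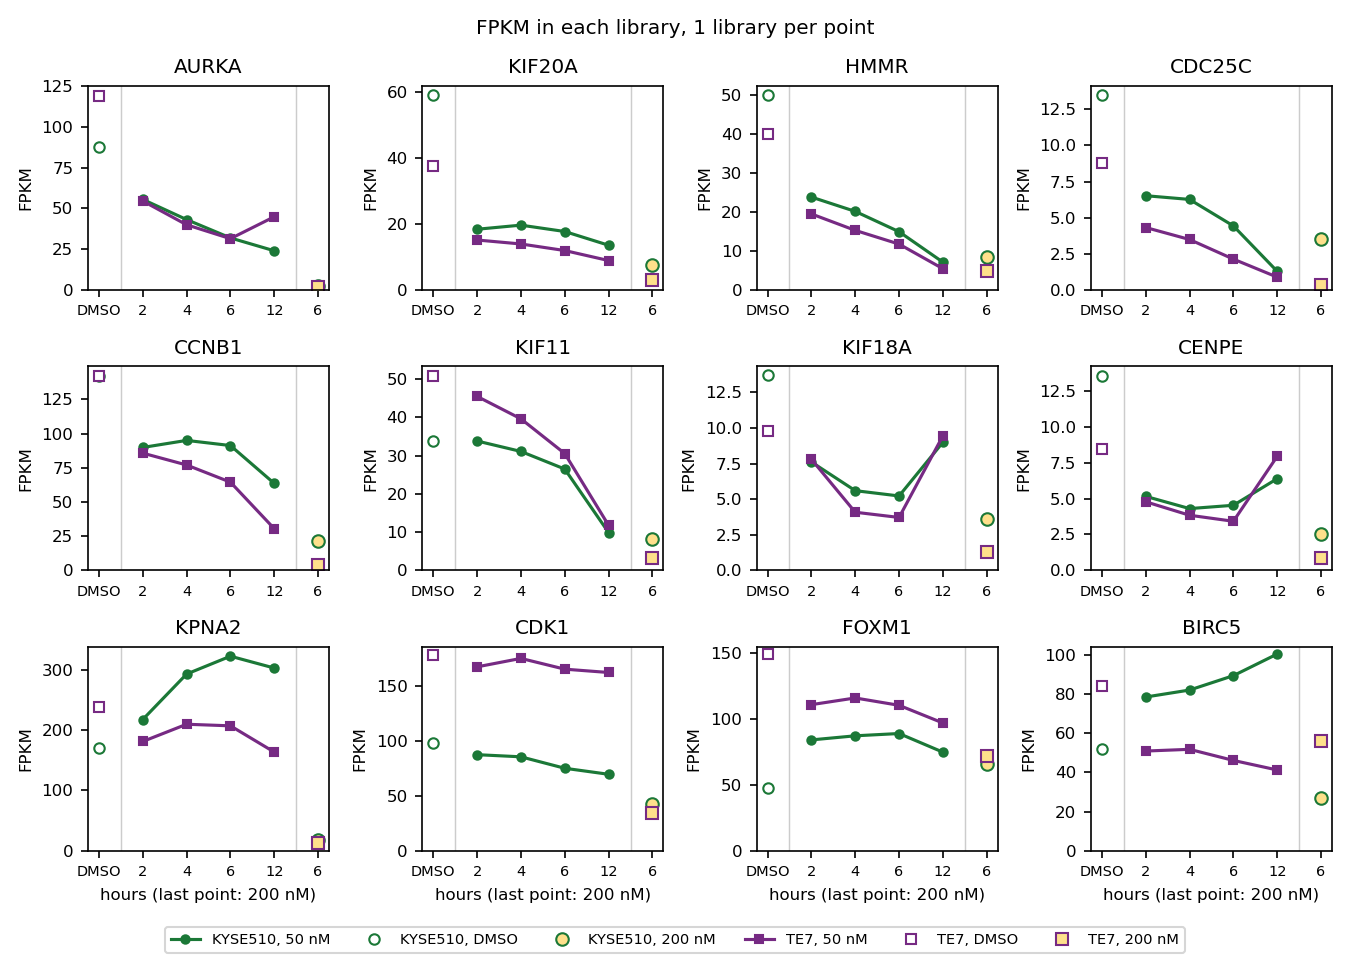
FPKM of 12 genes (1 panel each, linear axis from 0) in DMSO (open), at 2, 4, 6 and 12 h of 50 nM THZ1 (joined) and at 6 h of 200 nM (yellow), for KYSE510 (circles) and TE7 (squares), 1 library per point. HMMR goes down at each step of 50 nM, and KPNA2 is low in the 200 nM libraries alone. KIF18A and CENPE dip and are higher again at 12 h, near DMSO in TE7 and below it in KYSE510.

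Of the cyclins, CDK1 and its phosphatases, 0 of 6 fell at 2 or 4 h, 1 at 6 h, 4 at 12 h and 6 at 200 nM. This count and those of the groups below stand beside 4.02% of all genes called down at 6 h, 25.2% at 12 h and 35.3% at 200 nM. No group was tested against all genes. CDC25C and CDC25B, phosphatases that remove the inhibitory phosphates of CDK1, were among the largest falls at 12 h. CDC25C read 13.5 FPKM in DMSO, 6.52, 6.26, 4.43 and 1.28 FPKM at 2, 4, 6 and 12 h of 50 nM, and 3.53 FPKM at 200 nM in KYSE510. In TE7 it read 8.81 FPKM in DMSO, 4.32, 3.49, 2.13 and 0.880 FPKM at 2, 4, 6 and 12 h of 50 nM, and 0.352 FPKM at 200 nM. Its mean level over the 12 libraries was the lowest of the 38 members. CDC25C fell by 1.53 ± 0.35 at 6 h, just under the threshold (adjusted p = 0.04996, and from 0.00701 to 0.36 over 24 alternatives), and fell by 2.52 ± 0.35 at 12 h (adjusted p = 0.00251). CDC25B went from 71.8 FPKM in KYSE510 DMSO to 13.4 FPKM at 12 h, and from 59.1 to 12.9 FPKM in TE7, a fall of 2.23 ± 0.44 (adjusted p = 0.00879). At 6 h of 200 nM KYSE510 held more of both, 3.53 FPKM of CDC25C and 36.5 FPKM of CDC25B, than at 12 h of 50 nM.

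CCNB1 codes for cyclin B1, the partner of CDK1 at mitotic entry. It read 142 FPKM in DMSO, 89.8, 95.0, 91.2 and 63.5 FPKM at 2, 4, 6 and 12 h of 50 nM, and 21.5 FPKM at 200 nM in KYSE510. TE7 gave 142 FPKM in DMSO, 85.6, 77.0, 64.4 and 30.4 FPKM at 2, 4, 6 and 12 h of 50 nM, and 3.92 FPKM at 200 nM. Both lines started at the same level, and TE7 then went lower at each step. CCNB1 fell by 1.67 ± 0.49 at 12 h (adjusted p = 0.0384, and from 0.0024 to 0.197 over 25 alternatives, 15 of which lost the call) and fell by 3.76 ± 0.49 at 200 nM (adjusted p = 0.00127). CCNA2, for cyclin A2, which acts in S phase and G2, stayed near DMSO at 2 and 4 h and fell by 1.39 ± 0.30 at 12 h. CCNB2, for cyclin B2, stood at 57.8 FPKM at 12 h against 58.6 in DMSO in KYSE510, and at 45.3 against 95.6 in TE7; its fall of 2.34 ± 0.67 at 200 nM came largely from TE7 (5.19 FPKM) and less from KYSE510 (35.6 FPKM).

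CDK1, the kinase itself, had the smallest difference from DMSO of these 6 genes at 12 h. It read 97.6 FPKM in DMSO, 87.4, 85.5, 75 and 69.6 FPKM at 2, 4, 6 and 12 h of 50 nM, and 42.4 FPKM at 200 nM in KYSE510. TE7 gave 178 FPKM in DMSO, 167, 175, 165 and 162 FPKM at 2, 4, 6 and 12 h of 50 nM, and 34.2 FPKM at 200 nM. The TE7 levels at 50 nM all lay within 162 to 175 FPKM, beside 178 in DMSO. CDK1 stood at -0.31 ± 0.35 at 12 h (adjusted p = 0.54) and fell by 1.77 ± 0.35 at 200 nM (adjusted p = 0.00599), and the step from 50 to 200 nM at 6 h was a fall of 1.53 ± 0.35 (adjusted p = 0.0165).

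Among the mitotic kinases and the chromosomal passenger complex, 2 of 8 genes fell at 6 h, 5 at 12 h and 7 at 200 nM. PLK4 starts centriole duplication. It read 16.9 FPKM in DMSO, 17.6, 12.8, 8.59 and 4.03 FPKM at 2, 4, 6 and 12 h of 50 nM, and 2.87 FPKM at 200 nM in KYSE510. TE7 had 15.4 FPKM in DMSO, 20.2, 12.7, 7.93 and 3.54 FPKM at 2, 4, 6 and 12 h of 50 nM, and 2.62 FPKM at 200 nM. PLK4 was above DMSO at 2 h in both lines and then dropped at every step, so it had the largest difference of any member between 2 and 12 h, a fall of 2.06 ± 0.19 (adjusted p = 0.00201). Against DMSO it fell by 0.89 ± 0.19 at 6 h (adjusted p = 0.0437) and fell by 1.85 ± 0.19 at 12 h. PLK1, the Polo-like kinase of mitotic entry and exit, stood at -0.95 ± 0.46 at 12 h (adjusted p = 0.164) and fell by 3.38 ± 0.46 at 200 nM, to 15.3 FPKM in KYSE510 and 4.94 FPKM in TE7. NEK2, a kinase of centrosome separation, fell by 1.19 ± 0.34 at 12 h and fell by 3.10 ± 0.34 at 200 nM.

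In KYSE510, whose DMSO library stands apart, genes of the passenger complex lay on both sides of DMSO at 50 nM. There BIRC5 was above DMSO at 2, 4, 6 and 12 h, and CDCA8 was below it. In TE7 AURKB, CDCA8, INCENP and BIRC5 all lay below DMSO at these hours. Their TE7 changes at 12 h ran from -2.58 for AURKB to -0.97 for INCENP. No difference between genes was tested within the passenger complex. AURKB, its kinase, read 102 FPKM at 2 h against 66.3 in DMSO in KYSE510, but 79.4 against 104 in TE7, and ended at 41.4 and 16.6 FPKM at 12 h, a fall of 1.62 ± 0.40 (adjusted p = 0.0199). CDCA8, for borealin, fell by 1.24 ± 0.30 at 12 h and fell by 3.28 ± 0.30 at 200 nM. INCENP, the scaffold, stood at -0.54 ± 0.24 at 12 h (adjusted p = 0.126) and fell by 1.87 ± 0.24 at 200 nM. BIRC5, for survivin, read 52.0 FPKM in DMSO, 78.4, 82.0, 89.3 and 100.4 FPKM at 2, 4, 6 and 12 h of 50 nM, and 27.1 FPKM at 200 nM in KYSE510. In TE7 BIRC5 read 84.0 FPKM in DMSO, 50.9, 51.7, 46.1 and 41.2 FPKM at 2, 4, 6 and 12 h of 50 nM, and 55.9 FPKM at 200 nM. The lines thus went opposite ways at 50 nM, and BIRC5 did not pass in any contrast with DMSO (-0.04 ± 0.54 at 12 h, -0.75 ± 0.54 at 200 nM, adjusted p = 0.3). Of the BIRC5 span, 89.8% also lies in AC087645.1, and whether counting used strand is not given in the sources used here.

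In the spindle checkpoint group 0 of 5 genes fell at 6 h, 3 at 12 h and 5 at 200 nM. BUB1, a checkpoint kinase, was already at 20.8 FPKM at 2 h against 51.8 in DMSO in KYSE510, and at 31.3 against 46.8 in TE7; it fell by 1.77 ± 0.36 at 12 h (adjusted p = 0.00971). BUB1B, for BubR1, was above DMSO to 6 h in KYSE510 (41.5, 37.0 and 33.8 against 30.3 FPKM) and below it in TE7, and fell by 1.23 ± 0.32 at 12 h (adjusted p = 0.0247). TTK, the kinase MPS1, fell by 1.60 ± 0.31 at 12 h and fell by 3.59 ± 0.31 at 200 nM, to 2.88 and 0.636 FPKM. MAD2L1, for the inhibitor MAD2, read 67.4 FPKM in DMSO, 51.1, 56.0, 51.4 and 51.4 FPKM at 2, 4, 6 and 12 h of 50 nM, and 28.6 FPKM at 200 nM in KYSE510. TE7 showed 50.1 FPKM in DMSO, 54.8, 53.9, 52.2 and 33.0 FPKM at 2, 4, 6 and 12 h of 50 nM, and 29.7 FPKM at 200 nM. It was the smallest fall among the 36 at 200 nM, 0.97 ± 0.23 (adjusted p = 0.0119).

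CDC20, the activator of the anaphase-promoting complex, had the highest level of the group. It read 172 FPKM in DMSO, 88.7, 88.2, 88.7 and 81.7 FPKM at 2, 4, 6 and 12 h of 50 nM, and 101 FPKM at 200 nM in KYSE510. In TE7 it read 169 FPKM in DMSO, 89.9, 80.9, 64.5 and 41.9 FPKM at 2, 4, 6 and 12 h of 50 nM, and 20.6 FPKM at 200 nM. Near -0.9 at 2 h in both lines, it then stayed flat in KYSE510 and went on down in TE7. CDC20 stood at -1.53 ± 0.51 at 12 h (adjusted p = 0.0591) and fell by 1.87 ± 0.51 at 200 nM (adjusted p = 0.0226); KYSE510 read more CDC20 at 200 nM than in any library at 50 nM.

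Of the 5 kinesins 1 fell at 6 h, 3 at 12 h and 5 at 200 nM. KIF11, the bipolar kinesin Eg5, was near DMSO at 2 h (33.8 against 33.8 FPKM in KYSE510, 45.5 against 50.9 in TE7) and at 9.86 and 11.8 FPKM at 12 h, a fall of 1.85 ± 0.39 (adjusted p = 0.0111). KIF2C, the microtubule depolymerase MCAK, fell by 1.70 ± 0.23 at 12 h. KIF23, the kinesin MKLP1 of the central spindle, read 53.2 FPKM in DMSO, 44.2, 43.7, 42.9 and 47.1 FPKM at 2, 4, 6 and 12 h of 50 nM, and 11.3 FPKM at 200 nM in KYSE510. In TE7 KIF23 read 65.2 FPKM in DMSO, 96.3, 87.9, 75.2 and 64.8 FPKM at 2, 4, 6 and 12 h of 50 nM, and 7.43 FPKM at 200 nM. It was above DMSO at 2 to 6 h in TE7 and below in KYSE510, stood at -0.09 ± 0.37 at 12 h, and fell by 2.56 ± 0.37 at 200 nM (adjusted p = 0.00188).

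KIF18A and CENPE went down and were higher again at 12 h, near DMSO in TE7 but not in KYSE510. At 12 h KIF18A was at 96.7% of DMSO in TE7 and 65.6% in KYSE510, and CENPE at 94.2% and 47.0%. KIF18A, a kinesin that damps chromosome movement, read 13.7 FPKM in DMSO, 7.61, 5.60, 5.22 and 8.99 FPKM at 2, 4, 6 and 12 h of 50 nM, and 3.60 FPKM at 200 nM in KYSE510. TE7 gave 9.77 FPKM in DMSO, 7.80, 4.08, 3.71 and 9.45 FPKM at 2, 4, 6 and 12 h of 50 nM, and 1.32 FPKM at 200 nM. CENPE, a kinetochore-bound kinesin-like motor, read 13.6 FPKM in DMSO, 5.17, 4.31, 4.54 and 6.4 FPKM at 2, 4, 6 and 12 h of 50 nM, and 2.53 FPKM at 200 nM in KYSE510. TE7 readings of CENPE were 8.45 FPKM in DMSO, 4.79, 3.85, 3.42 and 7.96 FPKM at 2, 4, 6 and 12 h of 50 nM, and 0.880 FPKM at 200 nM. All 4 courses had their lowest 50 nM level at 4 or 6 h and were higher at 12 h. At 6 h KIF18A stood at -1.22 ± 0.28 (adjusted p = 0.0546) and CENPE at -1.25 ± 0.30 (adjusted p = 0.0589), and at 12 h at -0.30 ± 0.28 and -0.53 ± 0.30. From 2 to 12 h the differences of 0.23 ± 0.28 and 0.45 ± 0.30 did not pass, and the step from 6 to 12 h was not tested. This pair was singled out after its values were seen; they are the 2 longest of the 38 genes by span, 87.7 and 92.6 kb. Both fell at 200 nM, by 1.95 ± 0.28 and 2.19 ± 0.30.

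CENPA and CENPF are the other centromere and kinetochore genes, of which 1 of 3 fell at 6 h, 2 at 12 h and 3 at 200 nM. CENPA, the histone H3 variant of centromeres, read 32.9 FPKM in DMSO, 21.1, 17.7, 15.1 and 8.73 FPKM at 2, 4, 6 and 12 h of 50 nM, and 5.42 FPKM at 200 nM in KYSE510. TE7 had CENPA at 33.0 FPKM in DMSO, 15.3, 12.0, 10.4 and 10.3 FPKM at 2, 4, 6 and 12 h of 50 nM, and 3.16 FPKM at 200 nM. The fall was 1.32 ± 0.26 at 6 h (adjusted p = 0.0345) and 1.69 ± 0.26 at 12 h (adjusted p = 0.00332), with TE7 level from 6 to 12 h. Of the CENPA span 46.1% also lies in SLC35F6. CENPF, a large outer kinetochore protein, read 41.3 FPKM in DMSO, 21, 21.2, 18.7 and 13.9 FPKM at 2, 4, 6 and 12 h of 50 nM, and 13.3 FPKM at 200 nM in KYSE510. In TE7 it read 29.9 FPKM in DMSO, 15.4, 12.9, 11.7 and 7.95 FPKM at 2, 4, 6 and 12 h of 50 nM, and 1.73 FPKM at 200 nM. It stood at -1.19 ± 0.45 at 6 h (adjusted p = 0.171) and fell by 1.65 ± 0.45 at 12 h (adjusted p = 0.03, with 13 of 25 alternatives losing the call).

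KPNA2 showed the sharpest dependence on dose. It codes for importin alpha 1, which carries nuclear proteins and holds spindle assembly factors such as TPX2, and lies at chr17:66031635-66042958. KPNA2 had the highest mean level of the 38 members, and it read 169.7 FPKM in DMSO, 218, 293, 323 and 303 FPKM at 2, 4, 6 and 12 h of 50 nM, and 18.3 FPKM at 200 nM in KYSE510. In TE7 KPNA2 read 239 FPKM in DMSO, 181, 210.0, 207 and 164 FPKM at 2, 4, 6 and 12 h of 50 nM, and 12.2 FPKM at 200 nM. In KYSE510 all 4 libraries at 50 nM lay above DMSO and in TE7 all 4 lay below, and the mean changes of -0.02, 0.30, 0.36 and 0.14 did not pass. At 200 nM it fell by 3.66 ± 0.30 against DMSO (adjusted p = 0.000432) and fell by 4.02 ± 0.30 against 50 nM at the same hour (adjusted p = 0.000547), the largest dose difference among the members. TPX2 itself stood at -0.57 ± 0.22 at 12 h and fell by 2.37 ± 0.22 at 200 nM, and NUSAP1, a microtubule bundling protein, fell by 1.76 ± 0.37 there.

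None of the 3 midzone and cytokinesis genes fell at 50 nM, and all 3 fell at 200 nM. PRC1, which cross-links midzone microtubules, read 134 FPKM in DMSO, 64.8, 72.6, 70.3 and 92.6 FPKM at 2, 4, 6 and 12 h of 50 nM, and 34.2 FPKM at 200 nM in KYSE510. In TE7 PRC1 read 129.9 FPKM in DMSO, 108, 102, 83.4 and 84.1 FPKM at 2, 4, 6 and 12 h of 50 nM, and 47.1 FPKM at 200 nM. KYSE510 was lowest at 2 h among its 50 nM libraries and highest at 12 h. PRC1 stood at -0.57 ± 0.24 at 12 h (adjusted p = 0.107) and fell by 1.69 ± 0.24 at 200 nM; 75.3% of its span is shared with PRC1-AS1. ECT2, the exchange factor that activates RhoA for the contractile ring, read 55.5 FPKM in DMSO, 114, 109, 111 and 94.7 FPKM at 2, 4, 6 and 12 h of 50 nM, and 24.9 FPKM at 200 nM in KYSE510. In TE7 ECT2 was at 64.5 FPKM in DMSO, 55.9, 51.3, 48.7 and 41.0 FPKM at 2, 4, 6 and 12 h of 50 nM, and 23.7 FPKM at 200 nM. The lines again lay on opposite sides of DMSO at 50 nM, and at 200 nM ECT2 fell by 1.27 ± 0.38 (adjusted p = 0.0324). ANLN, for the ring scaffold anillin, fell by 1.99 ± 0.26 there.

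FOXM1, the transcription factor of this programme, was the member least below DMSO at 200 nM. FOXM1 read 47.5 FPKM in DMSO, 84.0, 87.1, 88.8 and 74.7 FPKM at 2, 4, 6 and 12 h of 50 nM, and 65.9 FPKM at 200 nM in KYSE510. TE7 gave 149 FPKM in DMSO, 111, 116, 110.2 and 96.8 FPKM at 2, 4, 6 and 12 h of 50 nM, and 71.9 FPKM at 200 nM. In KYSE510 all 5 THZ1 libraries were above DMSO and in TE7 all 5 were below, so its mean changes, 0.01 ± 0.34 at 12 h and -0.29 ± 0.34 at 200 nM, did not pass (adjusted p = 0.986 and 0.523). TOP2A, the topoisomerase that untangles sister chromatids, read 133 FPKM in DMSO, 89.3, 79.5, 73.6 and 48.6 FPKM at 2, 4, 6 and 12 h of 50 nM, and 32.4 FPKM at 200 nM in KYSE510. TE7 held 127 FPKM in DMSO, 73.6, 58.2, 44.9 and 22.3 FPKM at 2, 4, 6 and 12 h of 50 nM, and 23.0 FPKM at 200 nM. TOP2A fell by 1.16 ± 0.25 at 6 h (adjusted p = 0.043) and fell by 1.95 ± 0.25 at 12 h (adjusted p = 0.00206). MKI67, for the proliferation marker Ki-67, stood at -0.89 ± 0.44 at 12 h (adjusted p = 0.17) and fell by 1.60 ± 0.44 at 200 nM, with 19.1 FPKM in KYSE510 and 5.24 in TE7.

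The dose comparison at 6 h used no DMSO library, but it rests on the 200 nM libraries that stand apart. Between 50 and 200 nM 27 members fell and 0 rose, beside 21.9% of all genes called down and 2.94% called up, and the median member stood at -1.40 where all genes stood at -0.46. After KPNA2 came AURKA at -3.43 ± 0.30, CCNB1 at -2.88 ± 0.49, PLK1 at -2.73 ± 0.46, CDCA8 at -2.72 ± 0.30 and CCNA2 at -2.66 ± 0.30. CDC25B (-0.62 ± 0.44), CDC25C (-0.74 ± 0.35), CDC20 (-0.71 ± 0.51), BIRC5 (-0.71 ± 0.54) and FOXM1 (-0.52 ± 0.34) were among the 11 that did not pass. By group, 7 of 8 kinase and passenger genes fell, 5 of 5 spindle assembly genes, 3 of 3 cytokinesis genes, 4 of 5 kinesins, 3 of 5 checkpoint genes, 3 of 6 cyclin and phosphatase genes, 1 of 3 centromere genes and 1 of 3 of the group of FOXM1, TOP2A and MKI67. Differences between these small groups were not tested. The count was lower without either 50 nM library at 6 h. After scaling by the median of ratios it was 15, where 1387 of all genes were called down and 1498 up.

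Hours at 50 nM were also compared without DMSO. From 2 to 12 h 12 members fell and 0 rose, beside 20% of all genes called down and 1.88% called up, with a median of -0.61 for the members and -0.43 for all genes. The 12 were PLK4, KIF11, AURKB, HMMR, CDC25C, CDC25B, KIF2C, TOP2A, CCNA2, BUB1B, DLGAP5 and CENPA. The count was 2 without the KYSE510 or TE7 2 h library or the TE7 12 h library, 5 without the KYSE510 12 h library, 18 without either 200 nM library, and 2 after scaling by the median of ratios, where the median member turned to 0.0176 and that of all genes to 0.0336. The slope over the hours was called down in 30 members, beside 55.8% of all genes, and up in 0, beside 12.8%, but in 14 and 14 after that scaling. The count of 30 was 18 without the KYSE510 12 h library. Step by step, 17 members (44.7%) in KYSE510 and 25 (65.8%) in TE7 were lower at each time point than at the one before, beside 34.9% and 39.4% of all genes.

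The lines differed in the courses of some members. The slope over 2 to 12 h differed between KYSE510 and TE7 in 8 members, beside 3.57% of all genes called in that direction and 6.12% in either, and in each of the 8 the slope was higher in KYSE510, where those of ANLN, BIRC5, PRC1 and KIF23 were above 0. These were CDC20 (difference 0.0986 ± 0.0118 log2 units per h, adjusted p = 0.0176), ANLN, TOP2A, BIRC5, MKI67, KIF23, CCNB1 and PRC1. The count ranged from 0 to 9 when single libraries were left out, and was 0 without the KYSE510 2, 4 or 12 h library or the TE7 4 or 12 h library, 3 without the KYSE510 6 h library, and 4 after scaling by the median of ratios. Across the 38 genes the 2 lines' changes from DMSO had a Pearson r of 0.447 at 2 h, 0.584 at 4 h, 0.646 at 6 h, 0.664 at 12 h and 0.675 at 200 nM. Those values describe genes that share a DMSO library within each line, and genes are not replicates.

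**Figure D4:**
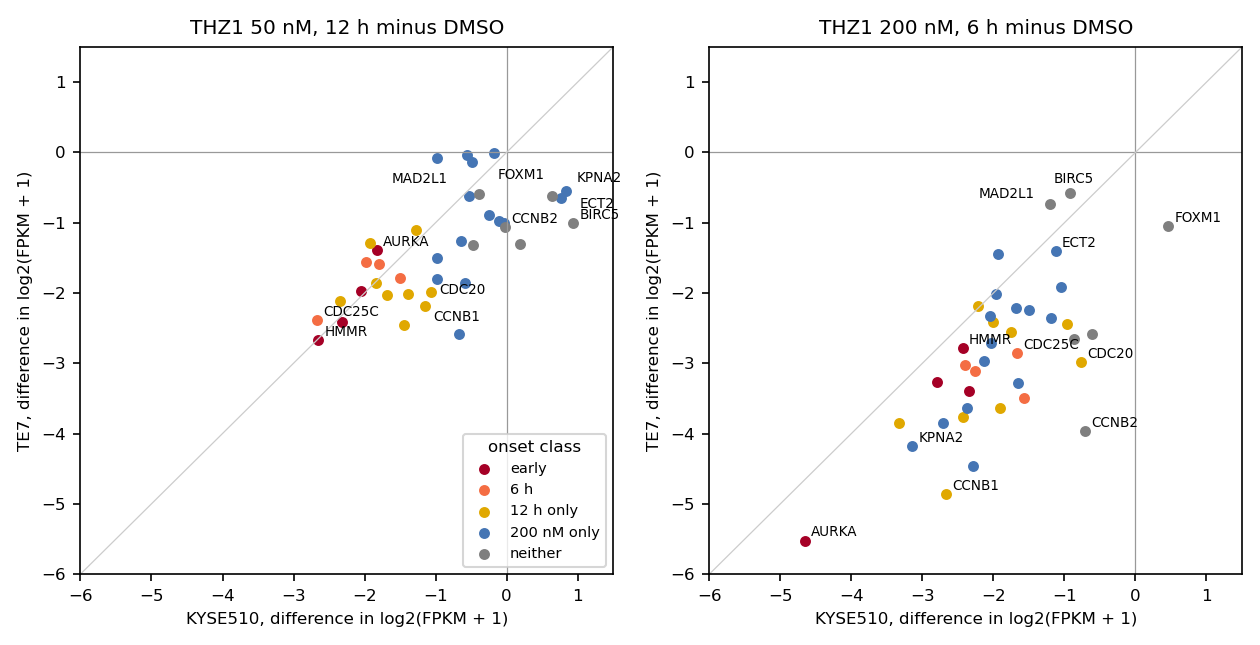
Difference from DMSO in log2(FPKM + 1) in KYSE510 (x axis) and TE7 (y axis) for the 38 genes at 12 h of 50 nM (left) and 6 h of 200 nM (right), 1 point per gene coloured by onset class, with the line of equal change. At 12 h KPNA2, ECT2, FOXM1, BIRC5 and NUSAP1 lie to the right of 0 in KYSE510 and under 0 in TE7, and at 200 nM 37 of the genes are under 0 in KYSE510 and 38 in TE7.

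Genes that work with these members were taken from further lists, whose counts stand beside 4.02% of all genes called down at 6 h, 25.2% at 12 h and 35.3% at 200 nM. No list was tested against all genes. Of 11 gene identifiers for MuvB, B-MYB and pocket proteins, with RBL1 listed under a pair of identifiers, 1 fell at 6 h, 4 at 12 h and 7 at 200 nM. RBL2, the pocket protein p130, fell by 1.35 ± 0.22 at 12 h, LIN52 of MuvB fell by 1.32 ± 0.24, and TFDP1, the partner of E2F, stood at 1.08 ± 0.49 (adjusted p = 0.142). Of 15 genes of the anaphase-promoting complex and its E2 enzymes 0 fell at 6 h, 3 at 12 h and 8 at 200 nM. ANAPC7, a subunit, fell by 1.53 ± 0.17 at 12 h, more than at 200 nM (0.63 ± 0.17), while FZR1, the activator CDH1, stood at -0.97 ± 0.38 at 12 h and fell by 1.96 ± 0.38 at 200 nM.

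Of 19 other kinetochore genes 3 fell at 6 h, 9 at 12 h and 15 at 200 nM. DSN1 of the MIS12 complex fell by 1.40 ± 0.24 at 6 h and fell by 2.82 ± 0.24 at 12 h, and SGOL1, for shugoshin, the protector of centromeric cohesion, fell by 1.43 ± 0.22 at 6 h and fell by 2.28 ± 0.22 at 12 h. Of 17 condensin and cohesin genes 1 fell at 6 h, 8 at 12 h and 11 at 200 nM; ESPL1, for separase, fell by 1.47 ± 0.29 at 6 h, and NCAPH of condensin I stood at -0.19 ± 0.38 at 6 h and fell by 1.84 ± 0.38 at 12 h. Of 21 other mitotic kinesin and centrosome genes 2 fell at 6 h, 13 at 12 h and 15 at 200 nM, with ASPM, a spindle pole protein, at -1.18 ± 0.29 at 2 h and at -1.91 ± 0.29 at 6 h, and KIF14 at -0.72 ± 0.19 and -1.37 ± 0.19; the 6 h value passed in both. Of 10 G2 checkpoint genes 0 fell at 6 h, 6 at 12 h and 6 at 200 nM, among them RAD17, a clamp loader, with a fall of 1.65 ± 0.23 at 12 h.

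Genes of the earlier step from G1 to S mostly lay above DMSO at 2 h. Of 21 such genes 16 (76.2%) were above DMSO in both lines at 2 h, beside 24.7% of all genes. In both lines 0 were below, beside 29.2%, and the median was 0.70. However, 0 passed the test in either direction. An unadjusted p under 0.05 was seen in 8, beside 1683 of all 15610 genes. Among the 38 mitosis genes 25 (65.8%) were below DMSO in both lines at 2 h and 1 (2.63%) was above. The G1/S median stood at 0.63 at 4 h, 0.47 at 6 h, 0.00 at 12 h and -0.93 at 200 nM, and 3 of 21 fell at 12 h, beside 25.2% of all genes, and 9 at 200 nM, beside 35.3%. E2F1, the factor that drives S-phase genes, read 38.2 FPKM at 2 h against 9.92 in DMSO in KYSE510, and 81.0 against 43.2 in TE7. It then fell by 2.92 ± 0.45 from 2 to 12 h (adjusted p = 0.00569). MCM7, a subunit of the replicative helicase, stood at 1.10 ± 0.37 at 2 h (adjusted p = 0.375) and at -0.34 ± 0.37 at 200 nM. In the contrasts without DMSO the G1/S median was not above that of the mitosis genes. Between 50 and 200 nM 14 of 21 G1/S genes fell (median -1.48), beside 27 of 38 mitosis genes (median -1.40). From 2 to 12 h 8 of 21 fell (median -0.79), beside 12 of 38 (median -0.61). The slope over hours was called down in 18 of 21, beside 30 of 38. Differences between the lists were not tested.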

How the data were processed

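Polyadenylated RNA of KYSE510 and TE7 cells was read in 12 libraries, 1 per line and condition. The authors deposited FPKM per gene, in tables with Cufflinks columns as the headers show. The submitters' processing notes list STAR, Cufflinks and hg19; versions, gene annotation and use of strand are not given in these sources. Identifiers at several loci (108) were summed.

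Values were tested as log2(FPKM + 1), which understates changes of low genes. Of 57755 genes, 15610 reached 1 FPKM in 2 or more libraries and entered the fit. limma 3.58.1 (R 4.3.3) had a term per condition and a cell-line block on all 12 libraries, with variances that follow the mean (5 residual and 2.86 prior degrees of freedom). Slopes over hours, 1 per line, came from the 8 libraries at 50 nM. Tests were two-sided, and p-values were adjusted by Benjamini and Hochberg's method across all 15610 genes, with 0.05 as the limit. The 2 lines served as replicates, so a p-value reflects only how these libraries scatter. Libraries are paired because those of 1 number are of 1 line. All contrasts with DMSO share its 2 libraries. The fits were tested on simulated data.

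Members, lists and onset classes were chosen with earlier results of these data known. Values in all libraries are given for members called by 6 h, the 3 with the largest and the 3 with the smallest fall at 12 h and at 200 nM, and the member with the highest mean FPKM in each group of functions. KIF18A and CENPE were added after their values were seen. Genes of the other lists were those of at least 5 FPKM with the largest change at 12 h, and a few at other times were singled out after their values were seen. Alternatives were pseudocounts of 0.1 and 5, no filter or a mean of at least 5 FPKM, 3 scalings (equal sums, upper quartile, median of ratios), the highest locus, variances robust or with no mean trend, no block, log2 hours, no 12 h libraries, and each library left out. Fits without the libraries that stand apart were added after seeing the data.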

Additional observations from a re-analysis of the deposited data

Results flagged for a closer look

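For 8 members the slope of log2(FPKM + 1) over 2 to 12 h of 50 nM differed between the lines past the threshold of limma, in each case with KYSE510 less negative than TE7 or positive. The difference, KYSE510 minus TE7 in log2 units per h with its standard error, was 0.1026 ± 0.0151 for ANLN, the ring scaffold (adjusted p = 0.0248), and 0.0986 ± 0.0118 for CDC20, the activator of the anaphase-promoting complex (adjusted p = 0.0176). It was 0.0957 ± 0.0208 for CCNB1 (adjusted p = 0.0472), 0.0834 ± 0.0185 for PRC1 (adjusted p = 0.0487) and 0.0808 ± 0.0117 for TOP2A (adjusted p = 0.0243). For MKI67 it was 0.0759 ± 0.0157 (adjusted p = 0.0428), for BIRC5 0.0682 ± 0.0123 (adjusted p = 0.0333) and for KIF23 0.0662 ± 0.0138 (adjusted p = 0.044). Each line has 1 library per hour, and no DMSO library enters these values.

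In 5 members all 4 libraries at 50 nM lay above DMSO in KYSE510 and all 4 lay below it in TE7. The median change in KYSE510 minus that in TE7 was 1.492 for BIRC5, 1.341 for ECT2, 1.268 for FOXM1, 1.111 for KPNA2 and 0.993 for NUSAP1, in log2 units. These differences between the lines were not tested, and the KYSE510 values rest on the DMSO library that stands apart. Relative to the median gene of each library, KPNA2 lay at 0.01 in TE7 at 6 h, on the other side of 0, while BIRC5, ECT2, FOXM1 and NUSAP1 kept their sides in all 8 libraries.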

How the results depend on the processing

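Counts of members called at 2, 4, 6 and 12 h against DMSO and at 12 against 2 h were 0, 0, 8, 20 and 12, with 27 for 200 against 50 nM and 36 for 200 nM against DMSO. With pseudocounts of 0.1 and 5 the 6 h count was 4 and the 4 h count 2. No filter gave 3 at 6 h and 5 at 12 against 2 h, and a mean of at least 5 FPKM gave 5 at 6 h. Equal sums of FPKM gave 16 for 200 against 50 nM. Median-of-ratios scaling gave 2 at 6 h, 9 at 12 h, 15 for 200 against 50 nM and 2 at 12 against 2 h, where the members' median turned from -0.61 to 0.0176. Upper-quartile scaling gave 3, 10, 14 and 4 for the same contrasts.

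The pairing by cell line changed counts: with no replicate block 0 were called at 6 h, 13 at 12 h, 4 at 12 against 2 h and 15 for the slope (30 with it). Leaving out 1 library at a time gave 0 to 3 at 2 h, 0 to 5 at 4 h, 0 to 17 at 6 h, 12 to 23 at 12 h, 31 to 36 at 200 nM, 11 to 32 for the dose contrast, 2 to 18 at 12 against 2 h, 18 to 32 for the slope and 0 to 9 for the line difference. Without both 200 nM libraries, chosen after seeing the data, 6 were called at 4 h and 17 at 6 h; without KYSE510 DMSO as well, 4 at 2 h, 19 at 4 h, 29 at 6 h and 24 at 12 against 2 h. There DMSO is the TE7 library alone. For fits with libraries left out, the share of all genes called is not given here. A higher count of members in such a fit thus does not show that members changed more than other genes.

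The line difference of 8 members was 4 with a pseudocount of 0.1, 2 with no filter and 13 with equal sums. It was 4 with either other scaling, 3 with no mean trend, and 0 with log2 hours or without the 12 h libraries. Of all genes, 1284 were called in the members' direction with equal sums, 314 with median of ratios and 346 with upper quartile. The cause of these shifts was not tested. FPKM carries no depth, and CDC25C, TTK and CENPE reached under 1 FPKM in TE7, where a pseudocount of 1 weighs most.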
